A study of Mus musculus with 6 samples.

Results

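Barrier ABC efflux transporters are 9 genes of the ATP-binding cassette (ABC) family: Abcb1a, Abcb1b, Abcg2, Abcc1, Abcc4, Abcc5, Abcc6, Abca1 and Abcg1. They were read from all 24 probe sets that the platform annotation assigns to 1 of these symbols alone, out of 45037 probe sets tested, or 9 of 18193 genes. Gene expression was measured in mouse cerebellar endothelium at postnatal day 16, after capture of the cells on beads carrying an antibody to PECAM, an endothelial surface protein. The groups were 3 preparations from Fz4-/- mice, which lack Frizzled4, and 3 preparations from wild type mice, each on 1 array. Both groups had a mixed C57Bl6/129 background and mixed gender, and neither the part of Fz4 that was deleted nor the pooling of animals is given in the sources used here. P-values therefore measure the spread between these preparations, which may be technical.

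ABC transporters use ATP to move substrates across membranes. In brain capillaries the drug pumps P-glycoprotein (Abcb1a and Abcb1b), Bcrp (Abcg2) and some Mrp proteins face the blood and return many drugs and toxins to it. The Mrp proteins come from the Abcc genes, not all of which have that place or role. Abca1 and Abcg1 instead export cholesterol and phospholipid to lipoproteins. Frizzled4 is an endothelial receptor for Norrin and Wnt ligands, through which beta-catenin with TCF/LEF factors switches on genes of the blood-brain barrier. The study's title asks for the long-term effect of losing that signal.

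The efflux transporters did not change past the threshold in Fz4-/- endothelium. Of the 24 probe sets, 0 passed a limma adjusted p of 0.05, against 0.0111% of all probe sets, and each had an adjusted p of 1.00. An unadjusted limma p under 0.05 was found for 1 probe set, a dimmer one of Abcg1, against 4.46% of all probe sets. Abcb1a and Abcg2, the main drug pumps of mouse brain endothelium, read almost the same in Fz4-/- and wild type preparations. Differences leaned slightly upward, with 7 of 9 genes and 21 of 24 probe sets higher in the Fz4-/- mean, where 51.3% of all genes and 48.6% of all probe sets were. Of those 21 probe sets, 10 belong to Abcc5 alone, so they are not independent. All values below are log2 RMA expression (RMA is a method that by design corrects background and normalizes the arrays together), and all differences are Fz4-/- minus wild type. A gene is read from its brightest probe set, by the mean of all 6 arrays, unless another is named. Levels of different probe sets are not read as relative amounts of RNA, since each binds its target with its own strength. They served only to pick probe sets or genes, and to place a signal roughly against the median or lower quartile of its array.

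Stretches at the start of 4 genes are shown. Those of Abcb1a, Abcc5 and Abca1 hold letters that match known motifs of the factors downstream of Frizzled4 or of those that control the lipid exporters, and that of Abcb1b, the tandem neighbour of Abcb1a, holds none and is shown beside it. They come from RefSeq on GRCm38.p6, and each runs from 250 bases before a start site that RefSeq gives for the gene to 50 bases after it, 5′ to 3′ on the gene's strand. Capitals mark a TCF/LEF motif (CAAAG with an A or T at each of the 2 bases before it, on either strand), or in Abca1 the pair of half-sites TGACCG and TAACC with 4 bases between them.
Abcb1a: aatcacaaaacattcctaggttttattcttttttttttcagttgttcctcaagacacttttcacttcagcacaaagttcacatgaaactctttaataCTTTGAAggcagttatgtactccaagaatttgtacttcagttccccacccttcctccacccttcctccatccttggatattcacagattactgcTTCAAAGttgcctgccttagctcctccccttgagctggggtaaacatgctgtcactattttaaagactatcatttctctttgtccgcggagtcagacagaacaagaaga
Abcb1b: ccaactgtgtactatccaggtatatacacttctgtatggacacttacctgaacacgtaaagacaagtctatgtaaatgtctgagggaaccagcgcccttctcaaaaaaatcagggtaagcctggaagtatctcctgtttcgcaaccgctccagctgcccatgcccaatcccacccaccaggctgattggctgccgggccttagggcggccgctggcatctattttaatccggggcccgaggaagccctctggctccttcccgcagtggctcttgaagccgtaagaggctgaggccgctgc
Abcc5: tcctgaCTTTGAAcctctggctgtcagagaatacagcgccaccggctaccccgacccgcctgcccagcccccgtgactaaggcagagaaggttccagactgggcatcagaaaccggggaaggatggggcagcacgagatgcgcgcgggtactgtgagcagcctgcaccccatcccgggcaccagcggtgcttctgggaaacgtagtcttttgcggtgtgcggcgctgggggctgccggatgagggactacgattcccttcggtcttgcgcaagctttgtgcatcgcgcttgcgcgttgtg
Abca1: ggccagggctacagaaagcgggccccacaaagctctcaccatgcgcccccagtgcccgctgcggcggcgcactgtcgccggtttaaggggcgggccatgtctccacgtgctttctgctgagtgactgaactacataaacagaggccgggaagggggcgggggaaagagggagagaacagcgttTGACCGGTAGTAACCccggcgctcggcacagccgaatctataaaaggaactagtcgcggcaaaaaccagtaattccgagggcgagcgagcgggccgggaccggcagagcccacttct

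The windows are chr5:8566841-8567140 (plus strand) for Abcb1a, chr5:8797897-8798196 (plus strand) for Abcb1b, chr16:20426345-20426644 (minus strand) for Abcc5 and chr4:53159846-53160145 (minus strand) for Abca1. The table held 9 windows for 6 of the 9 members. The Abcb1a window has the TCF/LEF motif at 2 places, at positions -153 to -147 on the opposite strand and -59 to -53 on the gene's own strand, counted from that start site. Gene coordinates given below are of the same build. Abcc5 has it at -244 to -238 on the opposite strand, and the second of the 2 Abcc4 windows has it at -106 to -100. The windows of Abcb1b, Abca1 and Abcg2 and the first of Abcc4 do not hold these letters. That makes 3 of 9 windows with at least 1 TCF/LEF motif, beside 16.9% of all 32851 windows. The Abca1 letters are those of its known response element for the liver X receptors (LXR), nuclear receptors for oxidised cholesterol. They stand at -67 to -53, and 0.0122% of windows hold them. Since the letters searched for were those of Abca1 itself, its match was fixed beforehand. The share tells how rare these letters are, not how often LXR sites occur. The motifs were chosen with the sequences in view, and a match is a description, not a binding site.

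P-glycoprotein comes from a tandem gene pair in mice. Abcb1a (chr5:8567091-8748575) encodes the form found in brain capillaries, and Abcb1b (chr5:8798147-8866314), which is known from adrenal gland and pregnant uterus, starts 49571 bases beyond its end. Abcb1a read 12.32, 12.35 and 12.60 in Fz4-/- replicates 1 to 3, against 12.32, 12.32 and 12.60 in wild type replicates 1 to 3. The groups overlapped almost completely, and in both the array numbered 3 was the highest. The difference was 0.01 (SE 0.18, n = 3), and its 95% interval from limma, -0.42 to 0.45, allows a ratio of Fz4-/- over wild type between 0.747 and 1.37. The dimmer Abcb1a probe set gave 0.06, with values of 11.50, 11.54 and 11.88 in Fz4-/- against 11.53, 11.42 and 11.79 in wild type. Within each replicate number the brighter probe set differed by 0.00, 0.03 and 0.01, which is less than its SD in either group (0.15 in Fz4-/- and 0.16 in wild type).

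Abcb1b was near or below the middle of the arrays. Its brighter probe set read 4.29, 5.35 and 4.94 in Fz4-/-, against 5.67, 5.38 and 4.22 in wild type, with array medians between 5.52 and 5.58. The lowest values were Fz4-/- replicate 1 and wild type replicate 3, so the groups overlapped. The difference was -0.23 (SE 0.44, interval -1.28 to 0.82), and within replicate numbers it was -1.38, -0.03 and 0.72, a change of sign. The other probe set, 2.44 to 2.91 in Fz4-/- and 2.50 to 3.37 in wild type, lay below every array's lower quartile (3.46 to 3.64) and is not shown to be above background. The genes are close copies, and without the probe sequences it could not be checked whether their probe sets read each other.

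Abcg2 (chr6:58584491-58692451) encodes Bcrp, a half-size pump that works as a dimer and shares many drug substrates with P-glycoprotein. It read 12.56, 12.68 and 12.48 in Fz4-/-, against 12.53, 12.50 and 12.40 in wild type. Fz4-/- replicate 3 lay below wild type replicates 1 and 2, so the groups overlapped. The means were 12.57 ± 0.10 in Fz4-/- and 12.48 ± 0.07 in wild type (SD, n = 3), a difference of 0.10 (SE 0.16). The interval, -0.29 to 0.48, allows a ratio from 0.817 to 1.40, the narrowest among the 9 genes. Within replicate numbers Abcg2 was higher in Fz4-/- each time, by 0.03, 0.18 and 0.08, as were 17.6% of all genes.

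**Figure D1:**
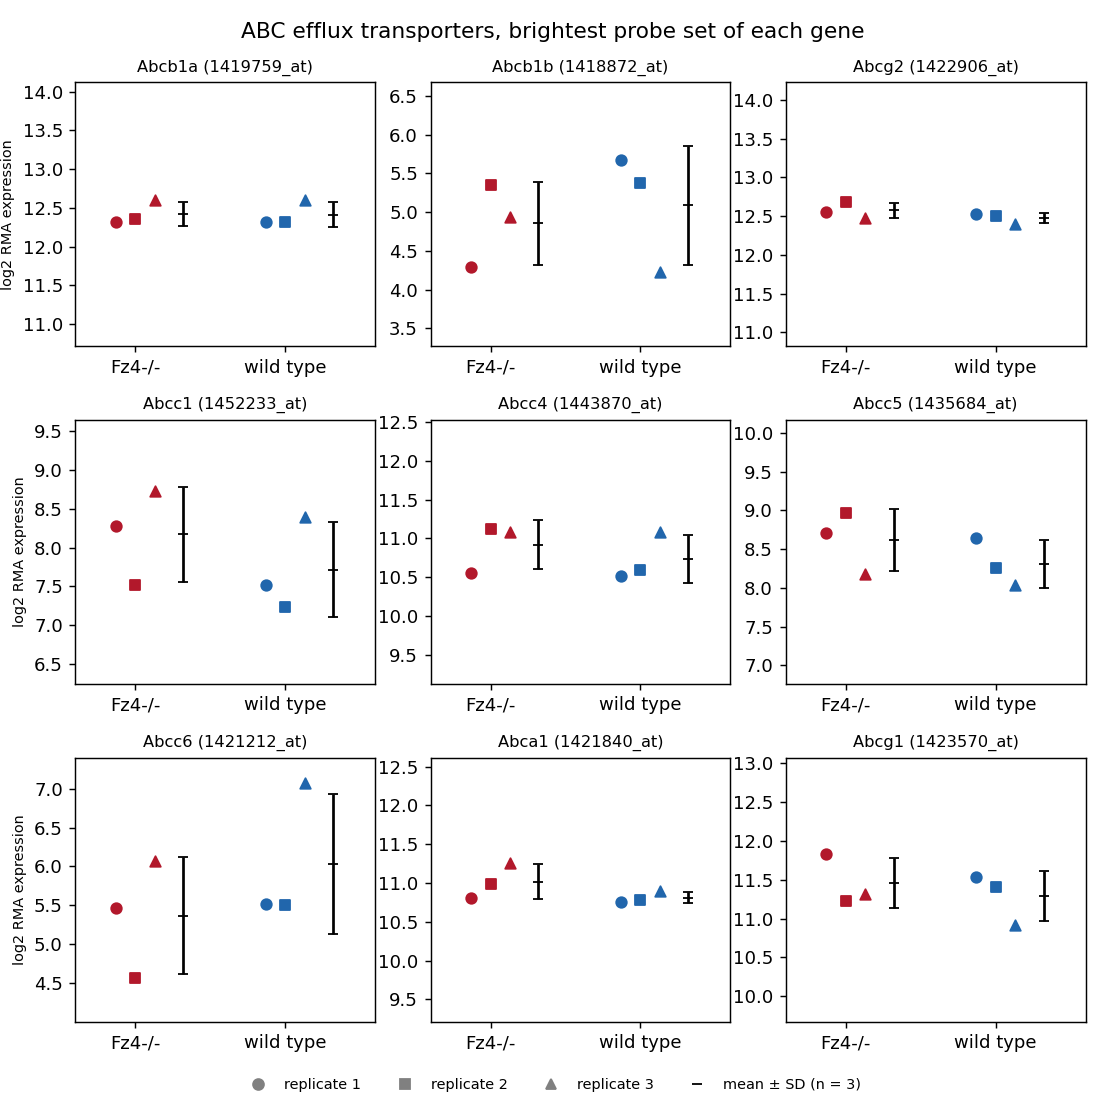
Log2 RMA expression of the 9 transporters by array, Fz4-/- on the left and wild type on the right of each panel, with mean ± SD (n = 3) as black bars and every panel spanning the same log2 range. The groups overlap in all 9 panels, and Abcb1a and Abcg2 vary least while Abcb1b, Abcc1 and Abcc6 vary most.

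The Mrp pumps varied more between arrays than Abcb1a and Abcg2. Abcc1 (chr16:14361453-14474878), which exports glutathione conjugates such as leukotriene C4, read 8.28, 7.52 and 8.73 in Fz4-/-, against 7.52, 7.23 and 8.40 in wild type. In each genotype the array numbered 3 was the highest and replicate 2 the lowest. The difference of 0.46 (SE 0.41, interval -0.52 to 1.44) was smaller than the SD of either group (0.61 in both). Within replicate numbers Abcc1 was higher in Fz4-/- each time, by 0.76, 0.29 and 0.33. Its other probe set, which the array design marks as able to read several transcripts, gave 0.55, 0.13 and -0.30.

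Abcc4 (chr14:118482692-118707856) exports cyclic nucleotides, prostaglandins and nucleotide drugs. It read 10.56, 11.12 and 11.08 in Fz4-/-, against 10.51, 10.60 and 11.08 in wild type. Only the arrays numbered 2 differed clearly, by 0.52, while those numbered 1 and 3 differed by 0.04 and -0.01. The difference of means was 0.19 (SE 0.25, interval -0.40 to 0.78).

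Abcc5 (chr16:20331303-20426428), an exporter of cyclic nucleotides, was higher in the Fz4-/- mean on all 10 of its probe sets, by 0.04 to 0.88. The array design marks 1435685_x_at, 1438056_x_at, 1459782_x_at, 1418042_a_at, 1427565_a_at and 1435683_a_at as able to read several transcripts. All 10 share 1 gene and the same arrays, so they are not independent. Among the 10, 1459782_x_at (0.04), 1447384_at (0.12) and 1430882_at (0.20) lay below the array median on every array. The last also lay below every array's lower quartile and is not shown to be above background. The brightest read 8.71, 8.96 and 8.17 in Fz4-/-, against 8.64, 8.25 and 8.04 in wild type, and the groups overlapped (difference 0.30, SE 0.27, interval -0.34 to 0.95). The groups did not overlap on 1 of the 10, 1427565_a_at, where Fz4-/- read 6.20, 6.77 and 6.03 and wild type read 6.02, 5.96 and 5.97. There, Fz4-/- replicate 3 lay just above the highest wild type array. The 0.88 came from a probe set that read 4.94, 6.12 and 6.39 in Fz4-/-, against 5.03, 4.76 and 5.01 in wild type (SE 0.38, limma adjusted p = 1.00). On that probe set replicates 2 and 3 were higher by 1.36 and 1.38, while replicate 1 read -0.09. It lay below the array median on 4 of the 6 arrays, among them every wild type array.

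The Abcc5 probe sets also ran in different directions across arrays of 1 genotype. On the brightest, the array numbered 3 lay below the mean of the other two, by -0.66 in Fz4-/- and -0.41 in wild type. On 1418042_a_at the same comparison gave 0.27 in Fz4-/- and 0.92 in wild type. Abca1 showed the same split between its probe sets, at 0.37 in Fz4-/- and 0.12 in wild type for the brightest against -0.46 in Fz4-/- and -0.54 in wild type for 1421839_at. The arrays numbered 3 also had the largest gap between the 3′ and 5′ control probe sets for Gapdh, a measure of RNA integrity and labelling, at 2.03 in Fz4-/- and 2.20 in wild type. The other arrays gave 0.97 and 1.07 in Fz4-/-, and 0.87 and 0.98 in wild type. For Actb, a second such control, the arrays differed much less. Its gap was 1.18 in Fz4-/- and 1.14 in wild type on the arrays numbered 3. The other arrays gave 1.02 and 1.08 in Fz4-/-, and 0.94 and 1.05 in wild type for Actb. The part of these gaps in the transporter values was not tested.

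Abcc6 (chr7:45974110-46030491) mediates ATP release from liver cells, and its loss causes tissue mineralisation in mice. It had the lowest p of the 9 genes and was lower in the Fz4-/- mean, by -0.67 (SE 0.54, interval -1.96 to 0.62, limma adjusted p = 1.00). It read 5.47, 4.56 and 6.07 in Fz4-/-, against 5.52, 5.51 and 7.08 in wild type. These values lay below the array median on 4 of the 6 arrays, all but those numbered 3. Wild type replicate 3 was the highest and Fz4-/- replicate 2 the lowest, and the other 4 arrays overlapped. Without wild type replicate 3 the difference was -0.15. That array also had the highest mean of 11 choroid plexus markers, 8.07, against 4.70 to 5.12 in Fz4-/- and 5.66 to 5.82 in the other wild type arrays, and the part of those cells in the Abcc6 value was not tested.

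**Figure D2:**
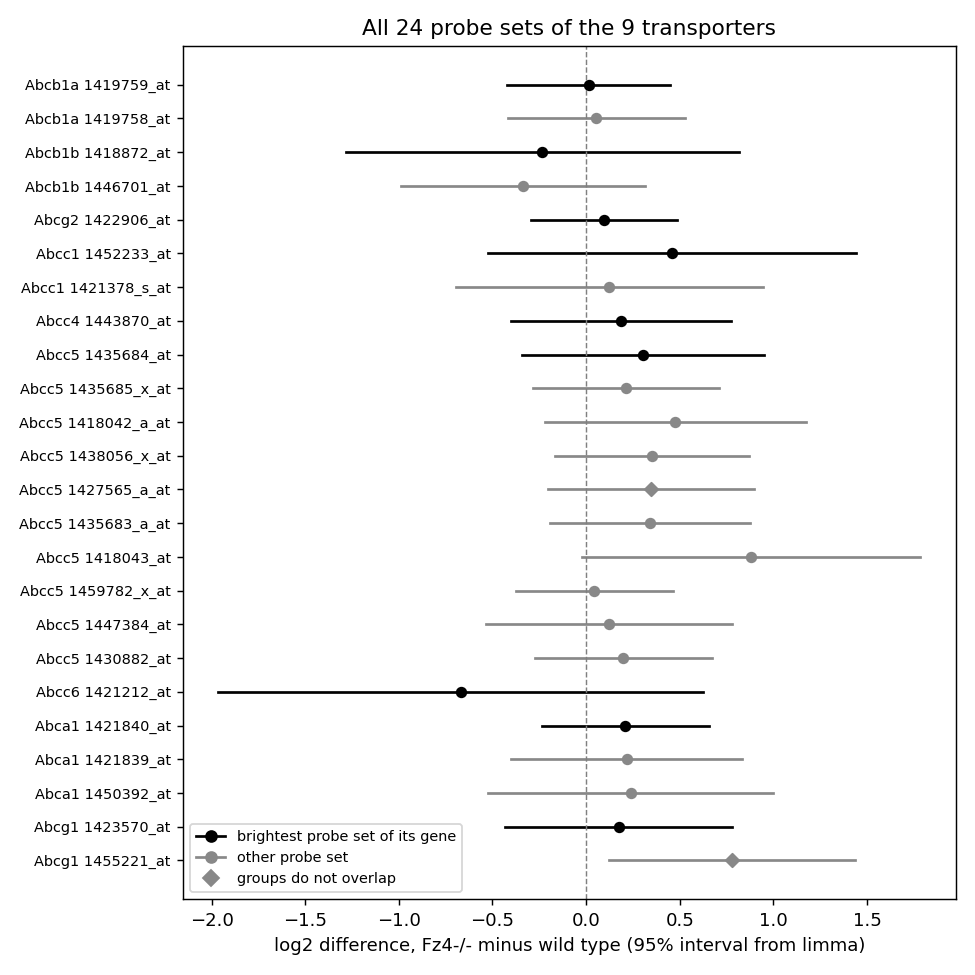
Log2 difference, Fz4-/- minus wild type, for all 24 probe sets of the 9 transporters, with 95% intervals from limma; black marks the brightest probe set of a gene, grey the others, and a diamond groups that do not overlap. The intervals include 0 on all but the dimmer Abcg1 probe set (1455221_at), and the widest belongs to Abcc6.

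The lipid exporters read higher in the Fz4-/- mean on all 5 of their probe sets, by 0.17 to 0.24 on 4 of them and by 0.78 on the dimmer one of Abcg1. Abca1 (chr4:53030789-53159988), which loads cholesterol and phospholipid onto apolipoprotein A-I, read 10.81, 10.98 and 11.26 in Fz4-/-, against 10.76, 10.78 and 10.89 in wild type. Fz4-/- replicate 1 lay below wild type replicate 3, and the other Fz4-/- arrays lay above all wild type arrays. The difference was 0.21 (SE 0.19, interval -0.24 to 0.65), and the other Abca1 probe sets gave 0.22 and 0.24. Within replicate numbers Abca1 was higher in Fz4-/- by 0.05, 0.21 and 0.37.

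Abcg1 (chr17:31057694-31117984), which passes cholesterol to high density lipoprotein, gave different answers on its 2 probe sets. The brighter read 11.83, 11.23 and 11.32 in Fz4-/-, against 11.53, 11.40 and 10.92 in wild type, and the groups overlapped (difference 0.17, SE 0.25, interval -0.43 to 0.78). The dimmer, 1455221_at, read 7.94, 7.87 and 7.67 in Fz4-/-, against 7.19, 6.49 and 7.46 in wild type. All 3 Fz4-/- arrays lay above all 3 wild type arrays there. The difference of 0.78 (SE 0.28, interval 0.12 to 1.44), a ratio of 1.72, had an unadjusted limma p of 0.0263 and an adjusted p of 1.00. In all, 2 of the 24 probe sets had groups that did not overlap, both higher in Fz4-/-, against 4.08% of all probe sets for that direction and 5.18% for lower.

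Deviations from the group means correlated at 0.574 between the arrays numbered 3. For numbers 1 and 2 they correlated at 0.244 and 0.303, where unlike numbers reached 0.262. Differences were also read within each number, though only the pair numbered 3 stands apart from unlike numbers. Of the 9 genes, 5 were higher in Fz4-/- within all 3 numbers (Abcb1a, Abcg2, Abcc1, Abcc5 and Abca1), against 17.6% of all genes. Abcc6 was lower within all 3, against 15.7% of all genes. With the replicate number as a block, 3 of 24 probe sets had an unadjusted limma p under 0.05, against 8.70% of all probe sets: Abcc1 (0.0441), Abcc6 (0.0432) and the dimmer Abcg1 probe set (0.0325). None passed the adjusted threshold, with a lowest adjusted p of 0.553.

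**Figure D3:**
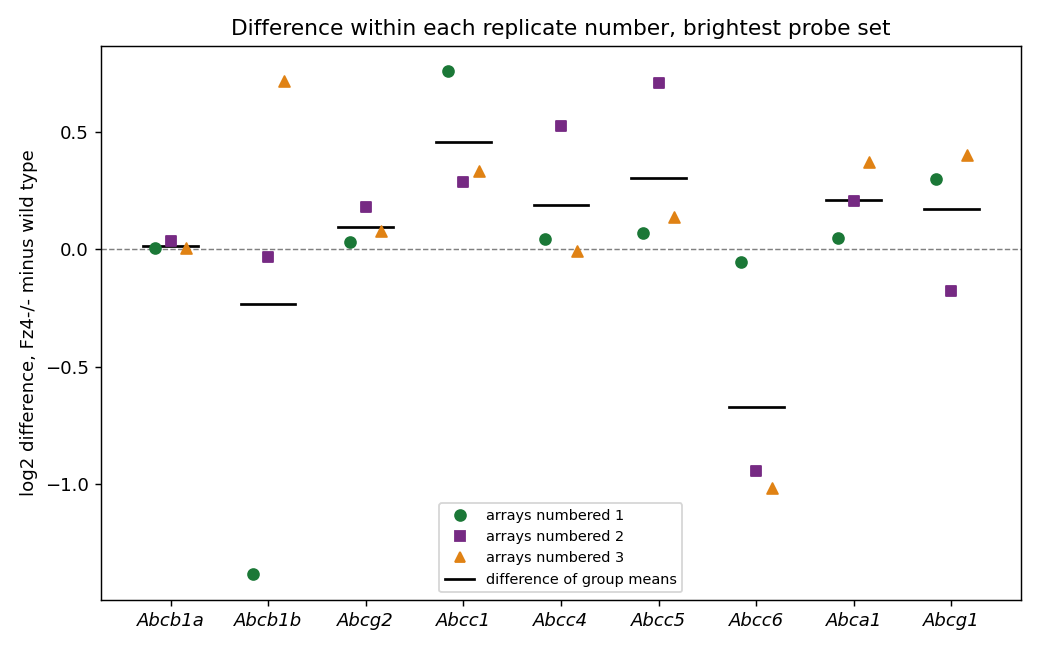
Difference between the Fz4-/- and wild type arrays of the same replicate number (coloured symbols) and of the group means (black bars), in log2 units, for the brightest probe set of each gene. Abcb1a lies at 0.00 to 0.03 within every number, while Abcb1b runs between -1.38 and 0.72.

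The rest of the ABC family also held no gene past the threshold. Of 36 other ABC genes, 0 passed and 0 had an unadjusted limma p under 0.05 (4.60% of all genes did). In the Fz4-/- mean 26 were lower and 10 higher, where 51.3% of all genes were higher. The median difference of the 36 was -0.14, beside 0.17 for the 9 efflux transporters and 0.01 for all genes. On all 6 arrays, 16 of them lay below the array medians. The groups did not overlap for 2 of the 36, Abcc10 and Abca9, against 9.54% of all genes. The 5 with the lowest p were Abcc10 (0.38), the peroxisomal fatty acid transporter Abcd2 (-0.63), Abca9 (-1.47), the retinoid flippase of photoreceptors Abca4 (-0.67) and the skin lipid transporter Abca12 (-0.35), which lay below the lower quartile on every array. Abcc10 read -0.0027 without probe sets that can read several transcripts, and Abcd2 read -0.19 as the mean of its probe sets.

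Several of these values moved with single arrays. Abca9 read 5.52, 9.03 and 8.59 in Fz4-/-, against 9.11, 9.30 and 9.12 in wild type, so most of its difference came from Fz4-/- replicate 1. On that array the 12 fibroblast and meningeal markers averaged 6.75, against 8.60 to 9.59 on the other Fz4-/- arrays and 8.90 to 9.39 in wild type. Abcc9, the sulfonylurea receptor subunit that marks brain pericytes, read 9.42, 11.45 and 11.49 in Fz4-/-, against 10.76, 10.81 and 11.20 in wild type. Abca4 was highest on wild type replicate 3, at 8.36, against at most 7.07 in Fz4-/- and 7.11 on the other wild type arrays. The part of non-endothelial cells in these values was not tested. The ribosome recycling factor Abce1 differed by -0.07 and Abcd3 of the peroxisomal membrane by -0.16.

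**Figure D4:**
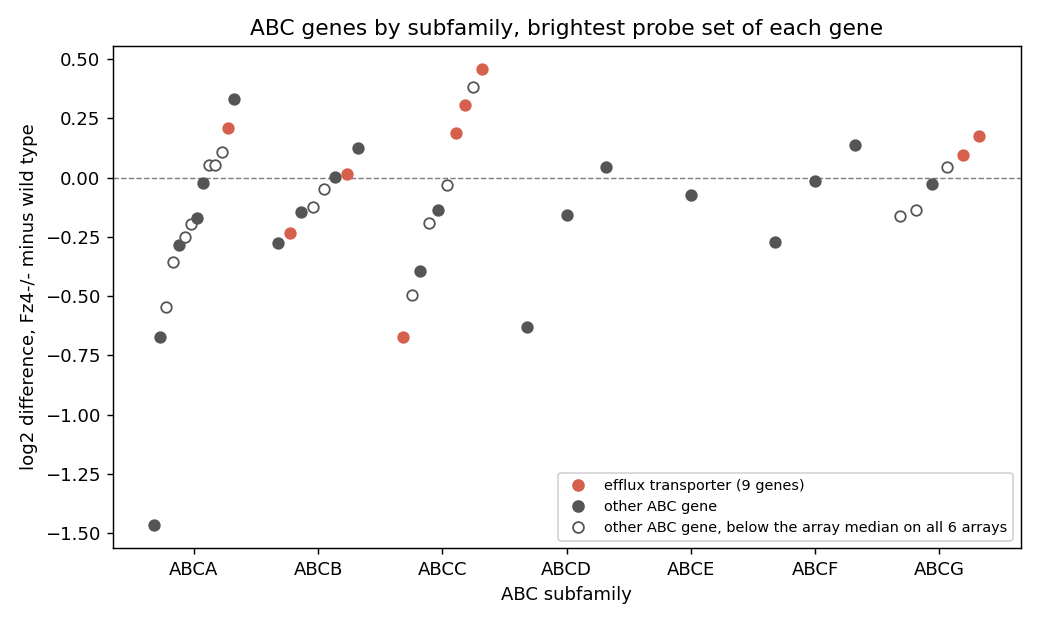
Log2 difference, Fz4-/- minus wild type, of 45 ABC genes by subfamily, with the 9 efflux transporters in orange, other ABC genes in grey and those below the array median on all 6 arrays as open circles. The other ABC genes lie between -0.55 and 0.38, apart from Abca9 at -1.47, Abca4 at -0.67 and Abcd2 at -0.63.

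Genes that act around the pumps likewise gave no call. Of 19 measured transcription factors known to control ABC genes, 0 passed the adjusted threshold and 14 were higher in the Fz4-/- mean (median difference 0.16). Of all genes 51.3% were higher, with a median difference of 0.01. Rxrb, the retinoid X receptor that pairs with the LXR and other nuclear receptors, read 9.58, 9.39 and 9.59 in Fz4-/-, against 8.92, 8.79 and 9.30 in wild type (difference 0.52, SE 0.20, limma adjusted p = 1.00). Pparg, a lipid-sensing nuclear receptor, read 0.48 higher (SE 0.20). The groups of both did not overlap, nor did those of the xenobiotic sensor Ahr (0.53, SE 0.25), named after its values were seen, against 4.59% of all genes for higher in Fz4-/-.

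Sterol and LXR-responsive genes, pooled as a list, were evenly split, 9 higher and 9 lower of 18 measured. The median was -0.003, with 0 past the threshold. Of LXR-responsive genes, Mylip (0.57), Fasn (0.39), Lpcat3 (0.34), Scd2 (0.19) and Srebf1 (0.18) were higher, and Apoe (-0.56) and Scd1 (-0.33) lower. Of sterol synthesis genes and their regulators, Lss (-0.44), Srebf2 (-0.33), Cyp51 (-0.17), Hmgcs1 (-0.09), Sqle (-0.04) and Idi1 (-0.01) were lower. Insig1 read 0.003. These groups were formed after the values were seen and were not tested apart. Mylip, an LXR-induced ligase that degrades the low density lipoprotein receptor, read 8.79, 9.46 and 9.11 in Fz4-/-, against 8.52, 8.69 and 8.42 in wild type (difference 0.57, SE 0.22, limma adjusted p = 1.00). Every Fz4-/- array lay above every wild type array. Scarb1, a lipoprotein receptor of endothelium, read 0.33 higher (SE 0.18), also without overlap. With Scd2, a fatty acid desaturase named after its values were seen (0.19, SE 0.17), 3 of the 18 were higher without overlap and 0 lower, against 4.59% of all genes for higher and 4.95% for lower.

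Among 11 anchors and traffickers of the pumps, 0 passed and the median was 0.02. Rab11a of recycling endosomes (0.19, SE 0.17) and ezrin (Ezr), which ties membrane proteins to actin (-0.29, SE 0.31), had the lowest p. Without overlap, Rab11a was higher and Hax1, named after its values were seen, was lower (-0.15, SE 0.16). Each was 1 of the 11 for its direction, against 4.59% of all genes for higher and 4.95% for lower. Among 15 conjugating enzymes, which make the glutathione and other conjugates that Mrp pumps export, 0 passed and the median was 0.08. Mgst1, a microsomal glutathione transferase, read 9.24, 9.22 and 8.95 in Fz4-/-, against 8.59, 8.54 and 8.38 in wild type (difference 0.63, SE 0.18, limma adjusted p = 0.913). Its groups did not overlap, and the difference was 0.302 without probe sets that can read several transcripts. Gsta4, which detoxifies lipid aldehydes, was lower without overlap (-0.34, SE 0.19). That was 1 of the 15 for lower and 1 for higher, against 4.95% of all genes for lower and 4.59% for higher in Fz4-/-.

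The genes with the most similar profile over the 6 arrays were named by the smallest root-mean-square distance between centred log2 values, among 10925 other genes above the middle level. For Abcb1a these were Clta, Gtpbp8 and Ubxn4, at distances of 0.025, 0.033 and 0.035. For Abcc6 they were Shld1 (0.14), Mmp17 (0.21) and Oas1a (0.21).

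The arrays carried their labels' genotype and cell type. Fzd4, the targeted gene, read 3.04 to 4.03 in Fz4-/- and 10.20 to 10.88 in wild type on its brightest probe set. The difference was -6.94 (SE 0.34, limma adjusted p = 0.00965, or 0.127 with the replicate block). Its next brightest probe set was also lower without overlap, but its difference of -4.95 (SE 0.43) missed the threshold (limma adjusted p = 0.0769). So did its dimmest, at -1.74 (SE 0.44, limma adjusted p = 0.850), also without overlap. The dimmest lay below the array median on all 6 arrays, at 1.77 to 1.78 in Fz4-/- and 2.51 to 4.37 in wild type. It could therefore show only a small part of a loss. Even a large loss of signal from the targeted gene, -4.95 on the next brightest probe set, could thus miss the threshold. The lack of calls among the transporters therefore does not show that they were unchanged. The 15 measured pan-endothelial markers averaged 11.56 to 11.67 in Fz4-/- and 11.28 to 11.47 in wild type, without overlap, with Pecam1 0.43 higher (SE 0.19) and Cldn5 at -0.01 (SE 0.21). These markers leaned the same way as most of the transporters, and the part of endothelial purity in the transporter values was not tested. Markers of pericytes, microglia and astrocytes were also measured above the array medians, on average over all 6 arrays, so the preparations were not endothelial cells alone. On Fz4-/- replicate 1 the 11 microglia and macrophage markers averaged 5.39, against 8.04 and 8.37 on the other Fz4-/- arrays and 8.09 to 8.34 in wild type. In such bulk samples fewer cells of a type and less RNA per cell cannot be told apart.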

How the data were processed

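Total RNA from 6 preparations was biotin-labelled and hybridised to Affymetrix 3′ arrays. RMA gave the deposited log2 values, per the submitters' processing notes, with no version or implementation named there. Values reach below 2, lower than RMA often gives, and no source used here states the background treatment. Of 45101 probe sets, 64 controls were left out, and 34945 carried 1 gene symbol, 932 several and 9160 none. The test was limma's (version 3.58.1, R 4.3.3; eBayes without a trend, no covariate), two-sided, with Benjamini-Hochberg adjustment over 45037 probe sets, and the script was checked on simulated data. An exact permutation of 3 against 3 arrays cannot go below 0.1, so none was run.

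Members and lists were chosen with earlier results of these data known. The rule for named genes took all members, the other ABC genes with the lowest p (5) or highest mean (3), the 2 lowest p of each other list, and the nearest profiles (3). The gene lists name several genes not analysed here. Deviations of same-numbered arrays correlated at 0.244, 0.303 and 0.574 over probe sets, all above 0.1, so the numbers were read as pairs. That pairing comes from the labels' numbers, and unlike numbers reached 0.262 too, so it stands apart only for number 3.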

Additional observations from a re-analysis of the deposited data

How the results depend on the processing

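The number of arrays limits what could be called, and dim probe sets (Abcb1b, 3 of Abcc5) lie low on the arrays, where the unstated background treatment could matter most. Abcc6, the dimmer Abcc1 probe set and Abcc5 1418043_at also lay below the array median on 4 of 6 arrays. No member probe set passed under any alternative (lowest adjusted p 0.493), and 0 genes of the other ABC, regulator, sterol, anchor and conjugation lists did. With an unadjusted limma p under 0.05 the members had 1 probe set, or 3 with the replicate block. All probe sets past the threshold numbered 5, against 21 with array weights, 11 with gene means, 8 at an adjusted p of 0.1, 0 with the replicate block (3917 unadjusted), 0 with an unmoderated statistic, 0 without both arrays numbered 3, a setting chosen after seeing the data, and 0 to 2 with 1 array left out. The median over the 9 genes was 0.17, 0.09 to 0.19 under the alternatives, and 0.085 to 0.121 with 1 array left out. Of 379 member values under alternatives, 362 kept their direction and 17 changed sign; the cause was not tested. With 1 array left out, the values that crossed 0 ran from -0.074 to 0.107 for Abcb1a, -0.065 to 0.160 for its dimmer probe set, -0.669 to 0.056 for Abcb1b, -0.012 to 0.296 for Abcg1, -0.098 to 0.486 for the dimmer Abcc1 probe set, -0.074 to 0.446 for Abca1 1450392_at, -0.054 to 0.133 for Abcc5 1459782_x_at and -0.090 to 0.320 for Abcc5 1447384_at. Among differences that kept their sign but moved by over 1.5 times, values ran from 0.503 to 0.986 for the dimmer Abcg1 probe set, 0.179 to 0.801 for Abcc1, 0.078 to 0.366 for Abcc4, 0.132 to 0.526 for Abcc5, 0.086 to 0.314 for Abca1, 0.042 to 0.142 for Abcg2, -1.02 to -0.148 for Abcc6, -2.12 to -0.370 for Abca9, -0.999 to -0.196 for Abca4 and -0.469 to -0.011 for Ezr. Other values moved as far, and not all are listed here. They included Abca1 1421839_at (0.040 to 0.374), Abcc5 1427565_a_at (0.128 to 0.498), Abcc5 1418042_a_at (0.310 to 0.782) and Abcd2 (-0.910 to -0.370). Abcc5 1447384_at also read -0.0611 with array weights and -0.212 without both arrays numbered 3. Of other named genes, Abce1 (-0.315 to 0.224) and Abcc9 (-0.489 to 0.550) crossed 0 with 1 array left out. With gene means Abce1 read 0.0834 and Abcd2 -0.187, and without probe sets that can read several transcripts Abcc10 read -0.0027, Rab11a -0.0442 and Mgst1 0.302.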
